A study of Mus musculus with 30 samples.

Results

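The comparison is between injured tibialis anterior muscle taken 15 days and 7 days after volumetric muscle loss. Its members were chosen by their titles, the 6 libraries of day 15 and the 6 of day 7, which are 12 of the 30 libraries of the series. The tibialis anterior lies along the shin and lifts the foot, and volumetric muscle loss is the removal of a piece of muscle larger than the tissue replaces by itself. Each day was represented by 3 male and 3 female libraries of total RNA. The other 18 libraries were of uninjured muscle and of days 4 and 11, with 3 per sex at each time. The injury is the only treatment that the labels name, and all 12 libraries compared were of injured muscle. Strain, age and the number of animals are not given there, and neither is it said that the libraries came from separate animals, so each p-value reflects only how far these libraries spread, which may be technical.

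After a muscle injury, inflammatory cells clear debris while muscle stem cells, the satellite cells, divide, fuse and build new fibres. New fibres first make embryonic and perinatal forms of the contractile proteins and later replace them with adult forms. Blood vessels grow back, and fibro-adipogenic progenitors, the connective tissue cells between the fibres, supply matrix and signals. The comparison asks how far these groups of genes had moved between the day 7 and the day 15 samples.

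Total counts were 20674040 to 52483561 per library at day 7 and 13089999 to 30024528 at day 15. Levels are given in CPM, counts brought to a common library size, with library sizes scaled by TMM factors, whose mean was 1.19 at day 7, 1.08 at day 15 and 0.527 in uninjured muscle. The files list 26264 genes, and 17136 passed the filter on low counts. Fibre markers were present in all 12 libraries but varied widely at day 7. The muscle creatine kinase gene Ckm ranged over 347 to 6257 CPM at day 7 and over 1788 to 3826 CPM at day 15. Xist and 4 Y-linked genes matched the labelled sex in all 12 libraries. The first principal component of the 12 libraries held 33.7% of the variance. On it the libraries male day 7 replicate 2 (-66.4) and female day 7 replicates 2 (-72.5) and 3 (-91.1) stood furthest from day 15 (21.4 to 58.2), and female day 7 replicate 1 (11.2) stood closest.

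Between the 2 days, edgeR's quasi-likelihood test with Benjamini-Hochberg adjustment called 1116 genes higher at day 15 (6.51% of those tested) and 1653 lower (9.65%). The threshold for a call was an adjusted p of 0.05. The median change over all genes tested was -0.07 on the log2 scale, the scale of every fold change below, each given ± SE. When libraries were scaled by their size only, the median gene moved to -0.20, and the split became 777 higher and 2179 lower, so that 26.3% of the calls were rises instead of 40.3%. Without the library male day 7 replicate 2 the number of falls was 1071. For 540 genes (3.15%) all 6 libraries of day 15 lay above all 6 of day 7, and for 487 (2.84%) all lay below. Samples of whole muscle were measured, so fewer cells of a type and less RNA per cell cannot be told apart in any of the changes below.

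**Figure D1:**
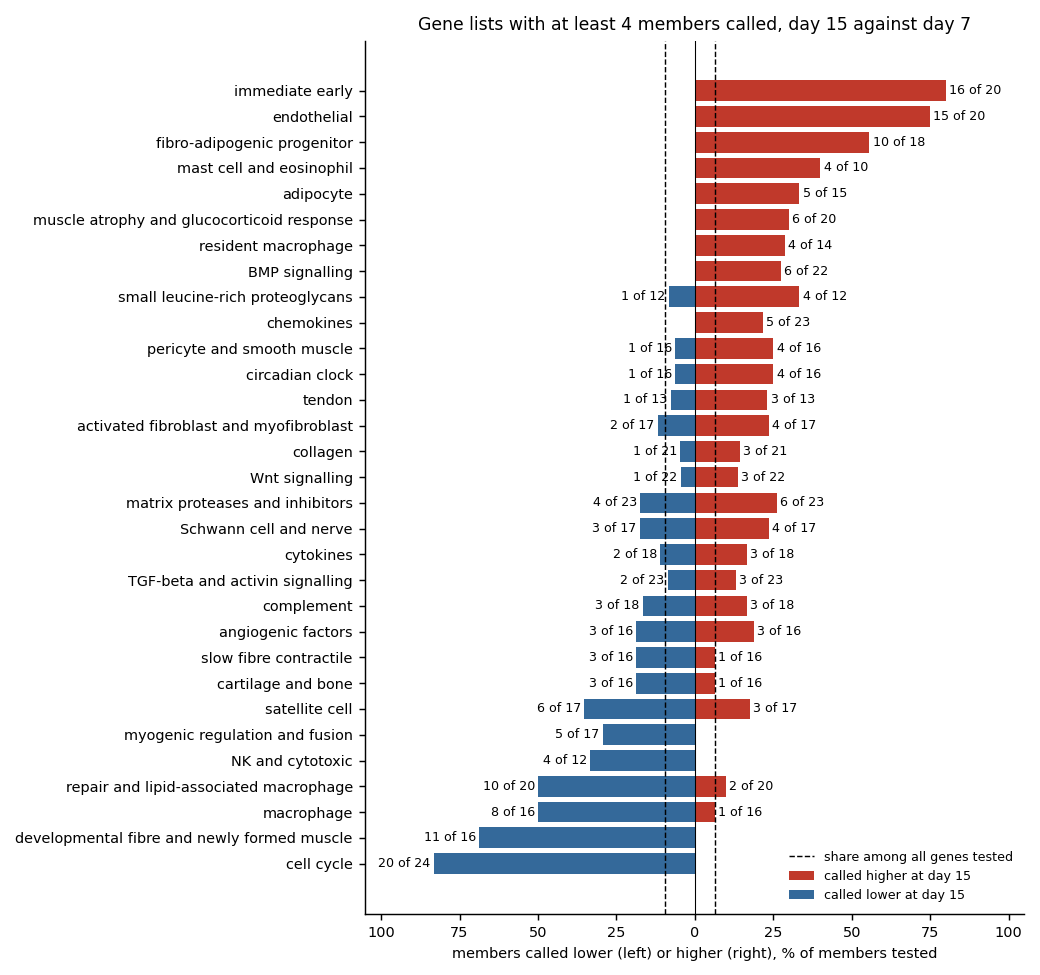
Share of each gene list called higher (right, red) or lower (left, blue) at day 15 than at day 7, in percent of the members tested, for the lists with at least 4 members called. The dashed lines give the shares among all 17136 genes, 6.51% higher and 9.65% lower; immediate early genes (16 of 20) and cell cycle genes (20 of 24) lie furthest from them.

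The largest rises were in immediate early genes, which encode short-lived transcription factors and regulators that many stimuli switch on within a short time. Of 20 members 16 rose and none fell, with a median change of 1.92. Fosb, a subunit of the AP-1 transcription factor, was at 1.98, 4.27 and 14.2 CPM at day 7 (lowest, median and highest of 6 libraries) and at 65.9, 152 and 629.8 CPM at day 15. Its level in uninjured muscle was 0.624 CPM (median of 6). All 6 libraries of day 15 lay above all 6 of day 7, and the highest was female day 15 replicate 3. The change was 5.10 ± 0.49 (adjusted p = 5.03e-07 by edgeR's quasi-likelihood test), or 5.85 without female day 7 replicate 3.

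Fos, its close relative, went from 9.48, 18.7 and 42.8 CPM to 185, 334 and 1197 CPM, again with no overlap (4.22 ± 0.44). The zinc finger regulators Egr1 and Klf4 rose by 2.72 ± 0.51 and 2.62 ± 0.30. Klf4 moved from 6.81 to 22.2 CPM at day 7 to 58.1 to 171 CPM at day 15. In 12 of the 16 members called, the 6 and 6 libraries did not overlap. The 4 members that did not pass the test were Fosl1 (-1.14 ± 0.76), Egr2 (0.47 ± 0.30), Egr3 (0.74 ± 0.37) and Myc (-0.40 ± 0.26).

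The levels summed over the list were 673 to 994 CPM at day 7 and 1683 to 7410.0 CPM at day 15, and the 3 female libraries of day 15 were the highest in mean level. The number called was 14 without female day 15 replicate 3, the library with the highest levels, and 15 when every library was thinned to the smallest total. At day 11 the median level of Fosb was 3.92 CPM and that of Fos 14.2 CPM, so that these genes stood near their day 7 levels 4 days before.

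The 15 largest rises among genes with no overlap, which include Fosb, Fos, Egr1 and Klf4, also held genes outside that list. Zfp36, which encodes a protein that speeds the decay of cytokine messenger RNAs, was at 21.1, 27.4 and 36.4 CPM at day 7 and at 90.4, 173 and 697 CPM at day 15 (2.97 ± 0.30, adjusted p = 7.46e-07 by edgeR). Btg2, an inhibitor of cell division, rose by 2.48 ± 0.27 and the endothelial early response gene Apold1 by 3.08 ± 0.48. The stretch- and growth factor-responsive matrix genes Ccn1 (1.94 ± 0.29) and Ccn2 (2.12 ± 0.40) rose by less. Ccn1 did not overlap between the days; in Ccn2, male day 7 replicate 2 reached 84.4 CPM and overlapped day 15.

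The 250 bases before the annotated starts of Fos and Zfp36 are shown because both genes rose in all 6 libraries. Sequences are from RefSeq, build GRCm38.p6, a build other than that of the counts, read 5′ to 3′ on the strand of the gene. Fos lies on the plus strand, with the window at chr12:85473640-85473889, and Zfp36 on the minus strand, at chr7:28379229-28379478. Capitals mark TATAAA in Fos and the CArG box, the letters that serum response factor binds, in Zfp36.
Fos: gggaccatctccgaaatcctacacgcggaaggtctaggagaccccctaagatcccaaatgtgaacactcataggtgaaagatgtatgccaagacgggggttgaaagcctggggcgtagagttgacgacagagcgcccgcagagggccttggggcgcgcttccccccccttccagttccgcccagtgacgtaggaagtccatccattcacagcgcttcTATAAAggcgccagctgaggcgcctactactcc
Zfp36: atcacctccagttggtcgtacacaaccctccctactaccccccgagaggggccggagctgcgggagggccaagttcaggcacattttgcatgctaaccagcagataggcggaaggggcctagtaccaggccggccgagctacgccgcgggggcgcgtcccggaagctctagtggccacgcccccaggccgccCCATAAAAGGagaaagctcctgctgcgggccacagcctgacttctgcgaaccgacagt
TATAAA, searched on both strands, begins 33 bases before the Fos start and is in the windows of 2 of 15 immediate early genes with a window, against 8.97% of 13373 tested genes. The CArG box lies from 58 to 49 bases before the start of Zfp36, which is not on the immediate early list. Of the 15 members with a window 1 holds it, Egr2, which was not called, and 0 of the 14 called members do, against 1.44% of tested genes. Egr1 and Ier2, both called, had no window. Bases further from the start were not searched, so the genes may hold the box elsewhere. These are matches of letters and show no binding.

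Genes of the blood vessel lining rose as well, by less. Of 20 endothelial markers 15 rose and none fell, with a median change of 0.89, and in 12 of them the 2 days did not overlap. Pecam1, the endothelial junction protein CD31, was at 73.1, 108 and 155 CPM at day 7 and at 173, 194 and 223 CPM at day 15, where the median of uninjured muscle was 141 CPM. Every day 15 library stood above every day 7 library (0.86 ± 0.15, adjusted p = 3.09e-04 by edgeR). Tek, the receptor for angiopoietins, went from 18.8, 25.8 and 31.8 CPM to 44.8, 56.8 and 91.1 CPM (1.23 ± 0.18), with every day 15 library above day 7. The guidance receptor Robo4 rose by 1.33 ± 0.22 and the phosphatase Ptprb, which acts on Tek, by 1.26 ± 0.25.

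The largest change of the list was in Lyve1, a hyaluronan receptor of lymphatic vessels and of some macrophages. It went from 0.699, 1.33 and 2.45 CPM to 3.89, 13.1 and 21.1 CPM (3.18 ± 0.44). The members that did not pass were Kdr (0.53 ± 0.29), Vwf (-0.07 ± 0.20), Aplnr (0.35 ± 0.19), Esm1 (0.64 ± 0.45) and the lymphatic regulator Prox1 (0.32 ± 0.24). Mmrn1, a secreted glycoprotein of lymphatic endothelium and platelets, was among the genes with the largest rises (2.98 ± 0.45). Between 14 and 16 members were called when any 1 library was left out. Of the angiogenic factors 3 of 16 rose and 3 fell, or 1 fell without male day 7 replicate 2, male day 15 replicate 2 or 3, female day 7 replicate 2 or female day 15 replicate 2. The peptide Apln (1.11 ± 0.27) and the Tek ligand Angpt2 (1.08 ± 0.25) rose, while Pdgfa, a growth factor for connective tissue cells, fell by 0.62 ± 0.15, or without a call when only the 12 libraries were fitted (adjusted p = 0.0610 by edgeR).

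**Figure D2:**
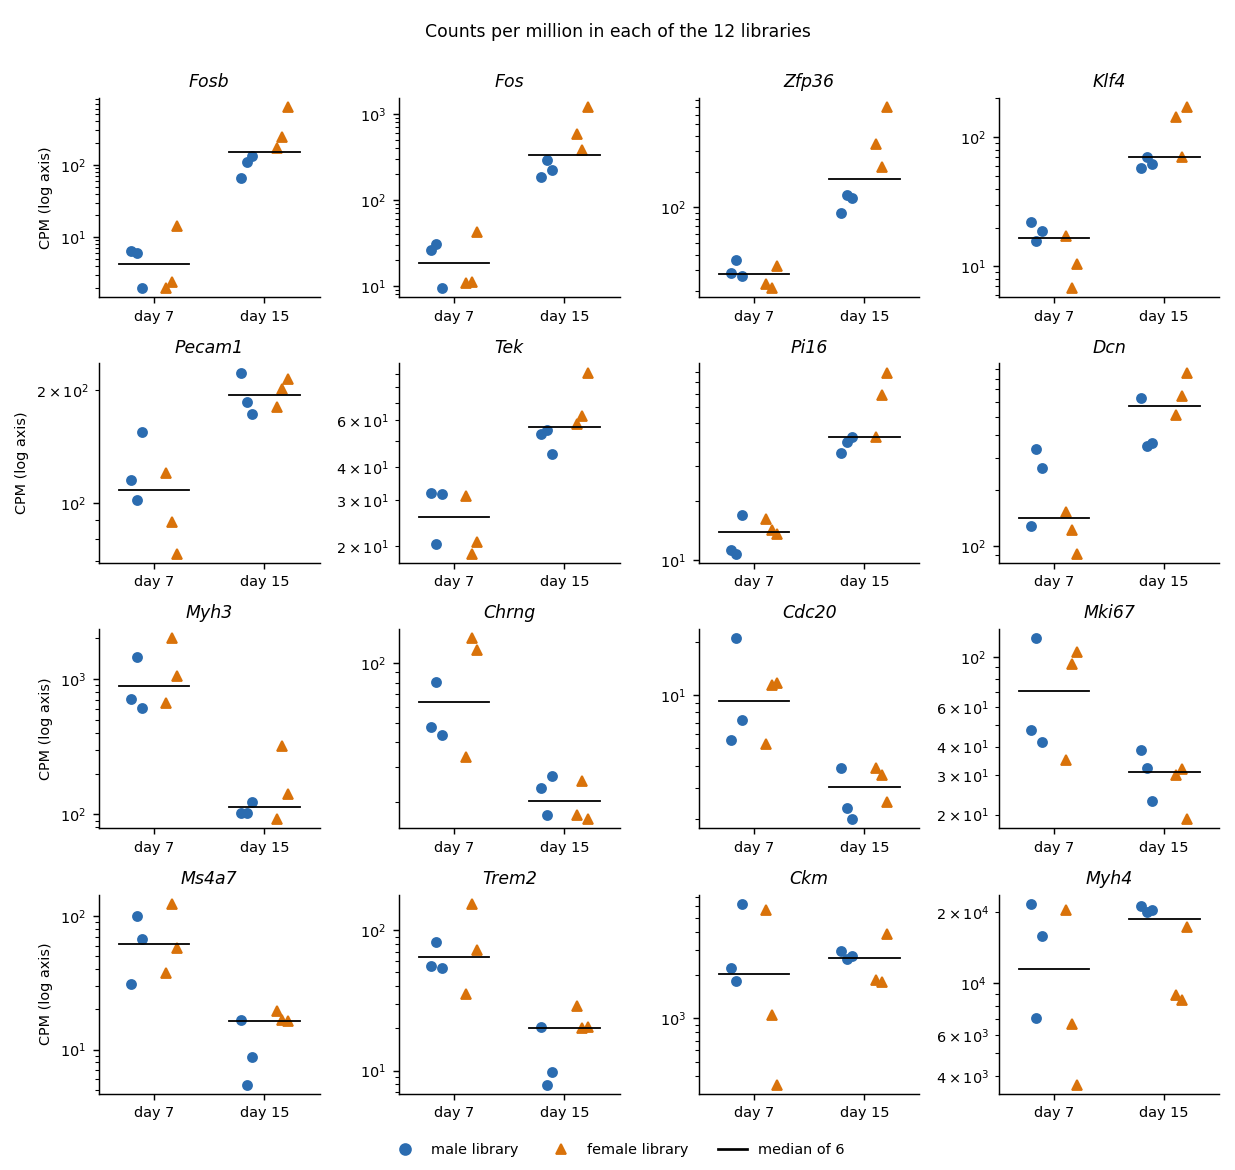
Levels in CPM on a log axis in each of the 12 libraries for 16 genes, with males as circles, females as triangles and the median of 6 as a line. Fosb, Fos, Zfp36, Pecam1 and Tek do not overlap between the days; Ckm and Myh4 spread more widely at day 7 (347 to 6257 CPM for Ckm) than at day 15 and overlap.

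Markers of fibro-adipogenic progenitors rose in 10 of 18 cases, with none falling and a median of 0.77. Pi16, a marker of adventitial fibroblasts, stood at 10.8, 13.9 and 17.0 CPM at day 7 and at 35.1, 42.3 and 89.8 CPM at day 15 (1.88 ± 0.33), with no overlap. The secreted lectin Clec3b rose by 1.82 ± 0.35 and the actin-severing protein gelsolin, Gsn, by 1.47 ± 0.21. The hyaluronan synthase Has1 went from 0.104, 0.400 and 0.644 CPM to 1.18, 5.23 and 27.4 CPM, a change of 3.76 ± 0.55, or 4.36 without female day 7 replicate 3. Pdgfra, the receptor that defines these cells, did not pass the test (0.06 ± 0.19, adjusted p = 0.863), and its median was 33.0 CPM at day 7 and 34.2 CPM at day 15. Its sign turned with library size alone (-0.14).

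Matrix genes did not move as one group. Of 21 collagens 3 rose and 1 fell. The 3 were of basement membranes, the sheets around vessels and fibres. They were Col4a2 (217, 284 and 346 CPM to 418, 525 and 587 CPM, 0.84 ± 0.17), Col4a1 (0.75 ± 0.19) and Col15a1 (0.91 ± 0.17). The member that fell, Col12a1 (-1.59 ± 0.52), lost the call without male day 7 replicate 2 (-0.78). It also lost it without any of 7 others, namely male day 15 replicates 2 and 3, female day 7 replicates 2 and 3 and the 3 female libraries of day 15. The main fibrillar collagens did not pass, with Col1a1 at -0.62 ± 0.42 and Col3a1 at 0.29 ± 0.37, and both were still far above uninjured muscle, where Col1a1 had a median of 62.7 CPM against 2581 CPM at day 15.

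Several small matrix proteins that bind or space collagen fibrils rose, 4 of the 12 small leucine-rich proteoglycans, while 1 fell. Decorin, Dcn, was at 91.3, 141 and 333 CPM at day 7 and at 348, 568 and 863 CPM at day 15 (1.67 ± 0.27). All 6 libraries of day 15 were above day 7, the nearest by a small margin. Keratocan, Kera, rose by 2.20 ± 0.58 and lumican, Lum, by 1.21 ± 0.30, and Podnl1 fell by 2.54 ± 0.50. Elastin, Eln, rose by 1.43 ± 0.24. Neither fibronectin, Fn1 (-0.51 ± 0.42), nor periostin, Postn (-1.21 ± 0.48), passed with edgeR. Postn was called by DESeq2 (-1.22, adjusted p = 0.0400), with library size alone (-1.46), and by edgeR without male day 7 replicate 1, male day 15 replicate 1 or female day 7 replicate 1; without male day 7 replicate 2 it was -0.61.

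Among the matrix proteases and inhibitors 6 of 23 rose and 4 fell, or 7 without female day 7 replicate 1. The inhibitor Timp3 went from 21.0, 45.6 and 114 CPM to 128, 169 and 204 CPM (1.52 ± 0.27), and the median of uninjured muscle was 169 CPM. Timp4 rose by 2.58 ± 0.57, or 3.68 without female day 7 replicate 1. Mmp9, the gelatinase B of leukocytes, went the other way, from 1.75, 6.64 and 18.9 CPM to 0, 0.553 and 1.60 CPM, a change of -4.27 ± 0.69, or -5.24 without male day 15 replicate 1. The procollagen protease Adamts14 fell by 1.74 ± 0.30.

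Regulators of growth factor signalling included several genes that rose in all 6 libraries. Of 22 BMP pathway genes 6 rose and none fell. The ligand Bmp2 rose by 1.17 ± 0.24, and the target Id1, an inhibitor of differentiation factors, went from 23.9, 35.3 and 50.9 CPM to 74.9, 115 and 139 CPM (1.64 ± 0.23), with no overlap. Id4 rose by 1.71 ± 0.22. Of 23 TGF-beta and activin genes 3 rose (5 without female day 7 replicate 1) and 2 fell; the co-receptor Tgfbr3 rose by 1.23 ± 0.13 and the latent TGF-beta binding protein Ltbp4 by 1.08 ± 0.19, while Ltbp2 fell by 2.50 ± 0.45. Of 22 Wnt genes 3 rose and 1 fell, with a median of -0.23 and 16 members below 0. The secreted inhibitors Sfrp4 (2.54 ± 0.40) and Dkk2 (1.78 ± 0.36) were up and the receptor Fzd2 (-1.30 ± 0.29) down, each with overlapping days. Rises made up 13% of the TGF-beta and activin list and 13.6% of the Wnt list, against 6.51% of all tested genes. Falls made up 8.7% and 4.55%, against 9.65%. The IGF-binding protein Igfbp6 rose by 1.89 ± 0.25.

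Genes that respond to glucocorticoids, fasting or the time of day also changed. Of the 20 tested genes of the muscle atrophy and glucocorticoid list 6 rose and none fell, with a median of 0.50. The clock gene Per1 went from 34.1, 64.2 and 120 CPM to 152, 234 and 277 CPM (1.76 ± 0.28). Foxo1, a transcription factor of fasting and atrophy, went from 13.5, 17.4 and 18.7 CPM to 30.7, 42.4 and 46.5 CPM (1.28 ± 0.16). Neither gene overlapped between the days. The glucocorticoid receptor chaperone Fkbp5 rose by 1.35 ± 0.25. The ubiquitin ligases Fbxo32 and Trim63, the usual markers of fibre atrophy, did not pass, at 0.53 ± 0.35 and 0.29 ± 0.27.

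Depp1 (3.40 ± 0.47), a target of Foxo factors, the arrestin-like Arrdc2 (2.42 ± 0.40) and the steroid sulfate transporter Slc10a6 (2.67 ± 0.25) were among the 15 genes with the largest rises. Of 16 clock genes 4 rose and 1 fell, or 2 rose with library size alone; Cry1 rose by 0.89 ± 0.17, and Dbp, a clock output gene, fell by 1.42 ± 0.38. Of 18 heat shock chaperones 2 rose, the stress-inducible Hspa1a (2.00 ± 0.25) and Hspa1b (1.50 ± 0.30), near-identical genes that can share reads.

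**Figure D3:**
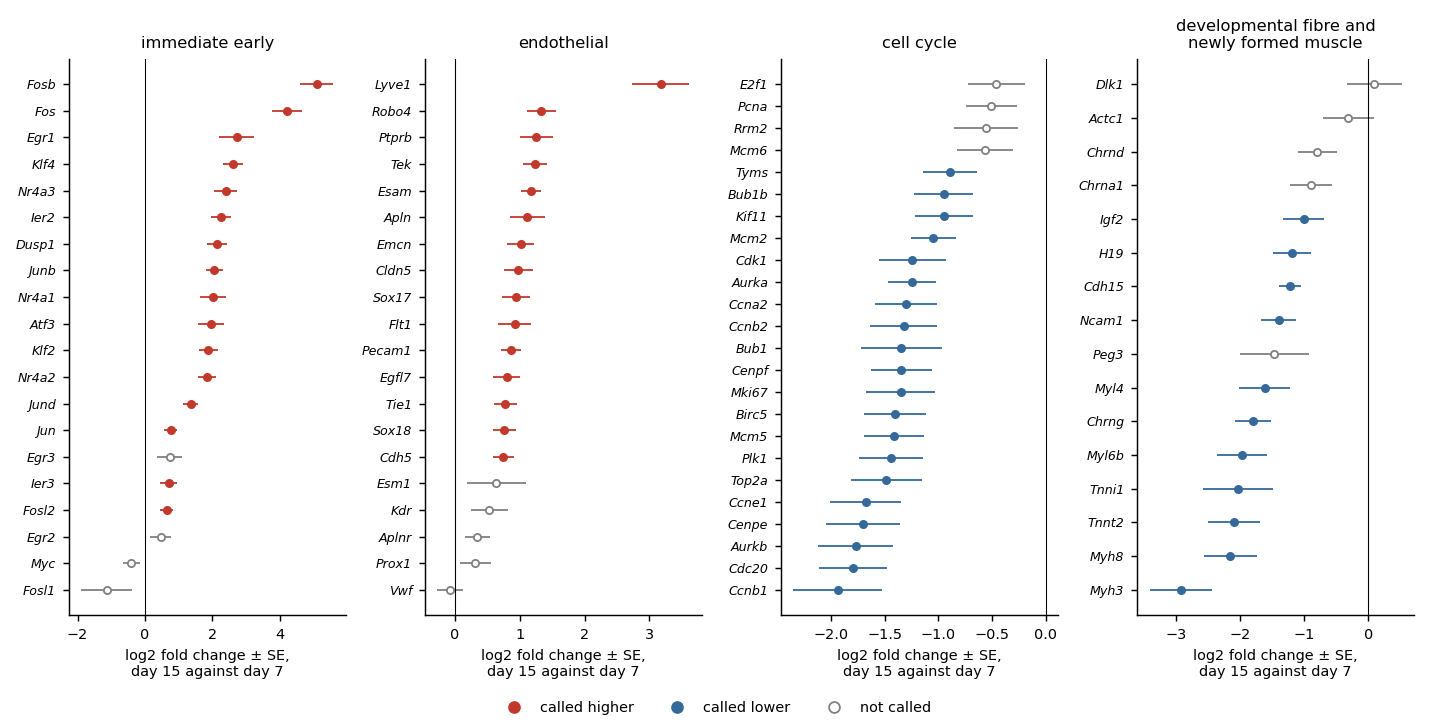
Log2 fold change from day 7 to day 15, with SE bars, for every tested member of 4 lists; filled points were called by edgeR and open grey points were not. The immediate early (16 of 20) and endothelial (15 of 20) members called lie right of 0, and those of the cell cycle (20 of 24) and developmental fibre (11 of 16) lists lie left of it.

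Genes of new muscle fibres fell. Of 16 developmental and newly formed fibre genes 11 fell and none rose, with a median of -1.43. Myh3, the embryonic myosin heavy chain, was at 608, 887 and 2013 CPM at day 7 and at 92.3, 114 and 319 CPM at day 15 (-2.92 ± 0.49, adjusted p = 2.29e-04 by edgeR). The 2 days did not overlap, and uninjured muscle had a median of 4.03 CPM. The perinatal myosin Myh8 went from 515, 759 and 1704 CPM to 152, 198 and 308 CPM, also without overlap (-2.15 ± 0.41). Chrng, the fetal subunit of the acetylcholine receptor, fell by 1.80 ± 0.28 and the cardiac and embryonic troponin Tnnt2 by 2.09 ± 0.41. The myosin light chain Myl6b, which is on the slow fibre list, fell by 1.97 ± 0.39. The slow troponin Tnni1, also made in developing fibres, fell by 2.03 ± 0.55. Of the 16 slow fibre genes 3 fell, Tnni1, Myl6b and Casq2 (-1.04 ± 0.24), and 1 rose, Pln (1.55 ± 0.37). The median of that list was 0.30.

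Adult fibre genes gave few calls. None of 22 fast contractile genes rose and 1 fell, Mybph (-1.06 ± 0.25). That is 0% and 4.55%, against 6.51% higher and 9.65% lower among all tested genes. The list median was 0.20, with 17 members above 0 and 5 below. The adult fast myosin Myh4 was at 3682, 11430.0 and 21810.0 CPM at day 7 and at 8467, 18710.0 and 21200.0 CPM at day 15, which overlapped throughout (0.32 ± 0.46, adjusted p = 0.701). In uninjured muscle its median was 82720.0 CPM. Myh1 (0.19 ± 0.41), Myh2 (0.53 ± 0.59) and Ckm (-0.12 ± 0.48) did not pass either. Their SE of 0.41 to 0.59 leave room for changes in either direction. The adult receptor subunit Chrne was 0.48 ± 0.44.

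Energy genes gave few calls. Of 21 genes of glycolysis and glycogen 1 rose (4.76%), and of 21 of oxidative phosphorylation 1 rose (4.76%). None of 17 genes of the TCA cycle was called. Among all tested genes 6.51% rose, so counts this small are no result about the lists. Members with a change above 0 numbered 16 of 21 for glycolysis and glycogen, 10 of 17 for the TCA cycle and 17 of 21 for oxidative phosphorylation. Without female day 7 replicate 1 the 3 lists gave 3, 2 and 7 rises. The oxidative phosphorylation gene was Cox7a1, the muscle form of a cytochrome oxidase subunit, which went from 65.9, 204 and 381 CPM to 482, 594 and 726 CPM with no overlap (1.53 ± 0.40). Utrophin, Utrn, a relative of dystrophin in young fibres and at synapses, rose by 0.60 ± 0.11.

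Some regulators of muscle formation fell. Of 17 genes of myogenic regulation and fusion 5 fell, none rose and 12 did not pass, with a median of -0.17 and 7 members above 0. Without male day 7 replicate 2 or without female day 7 replicate 2, 3 were called. Myog, the differentiation factor of myoblasts, went from 171, 303 and 595 CPM to 78.6, 109 and 171 CPM (-1.50 ± 0.33), the 2 ranges just meeting without overlap. The fusion protein Mymk fell by 1.69 ± 0.41. Its partner Mymx fell by 1.41 ± 0.39, a call lost without male day 7 replicate 2 (-1.15, adjusted p = 0.0590 by edgeR) or female day 7 replicate 2 (-1.12, adjusted p = 0.0596 by edgeR). Myod1, the determination factor, fell by 0.80 ± 0.25, a call lost without male day 7 replicate 2 (-0.66), male day 15 replicate 1 or 2, female day 7 replicate 2 or female day 15 replicate 1.

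Satellite cell markers were mixed, with 6 of 17 lower and 3 higher. Pax7, the transcription factor that defines these stem cells, went from 1.98, 3.29 and 5.66 CPM to 0.610, 1.17 and 2.03 CPM, below the 1.79 CPM of uninjured muscle in its median (-1.62 ± 0.33). The receptors Fgfr4 (-1.96 ± 0.22) and Megf10 (-1.69 ± 0.29), active in dividing satellite cells, fell with no overlap. The lectin Chodl rose by 1.72 ± 0.30. Myf5 did not pass (-0.19 ± 0.28).

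Cell division genes fell together. Of 24 cell cycle genes 20 fell and none rose, with a median of -1.33, and 12 did not overlap. Cdc20, an activator of the complex that ends mitosis, went from 5.31, 9.31 and 21.1 CPM to 1.99, 3.02 and 3.88 CPM (-1.80 ± 0.32, adjusted p = 4.15e-04 by edgeR). All 6 libraries of day 15 lay below day 7, and the highest was male day 7 replicate 2. The proliferation marker Mki67 went from 34.8, 70.5 and 121 CPM to 19.1, 30.9 and 38.6 CPM, which overlapped in part (-1.35 ± 0.32). The mitotic cyclin Ccnb1 fell by 1.94 ± 0.41, or by 1.35 without male day 7 replicate 2, and the mitotic kinase Aurkb by 1.77 ± 0.35.

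Levels at day 15 were still above uninjured muscle, where the median of Mki67 was 0.601 CPM. The cell cycle members that did not pass were Mcm6 (-0.57 ± 0.26), Pcna (-0.51 ± 0.24), Rrm2 (-0.55 ± 0.30) and E2f1 (-0.46 ± 0.27), which act in DNA replication or its control. Other members of that kind were called lower, namely Mcm2 (-1.05), Mcm5 (-1.41), Ccne1 (-1.68) and Tyms (-0.89). The call of Tyms was lost without any 1 of 4 libraries. Leaving out 1 library gave 16 to 21 called members. Summed levels of the list were 236 to 736 CPM at day 7 and 148 to 222 CPM at day 15. Cdca3, an activator of mitotic entry outside this list, was among the 15 largest falls (-2.19 ± 0.31).

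The 250 bases before the starts of 3 of these genes are shown because the members fell together and share letters there. Capitals mark the CCAAT box (CCAAT, or ATTGG on the other strand) and the cell cycle homology region (TTTGAA, or TTCAAA on the other strand), elements known from cell cycle promoters. All 3 genes lie on the minus strand of GRCm38.p6 in RefSeq, at chr13:100786487-100786736 for Ccnb1, chr4:118437344-118437593 for Cdc20 and chr7:135716380-135716629 for Mki67.
Ccnb1: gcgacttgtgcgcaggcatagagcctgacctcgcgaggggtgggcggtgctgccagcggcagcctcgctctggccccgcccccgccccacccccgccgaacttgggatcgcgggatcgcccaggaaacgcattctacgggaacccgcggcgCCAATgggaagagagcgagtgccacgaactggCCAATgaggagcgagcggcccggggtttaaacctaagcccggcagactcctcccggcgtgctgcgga
Cdc20: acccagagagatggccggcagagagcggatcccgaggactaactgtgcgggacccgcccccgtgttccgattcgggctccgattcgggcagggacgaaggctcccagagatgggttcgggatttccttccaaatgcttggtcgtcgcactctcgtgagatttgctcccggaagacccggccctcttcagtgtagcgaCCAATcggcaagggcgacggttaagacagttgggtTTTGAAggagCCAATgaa
Mki67: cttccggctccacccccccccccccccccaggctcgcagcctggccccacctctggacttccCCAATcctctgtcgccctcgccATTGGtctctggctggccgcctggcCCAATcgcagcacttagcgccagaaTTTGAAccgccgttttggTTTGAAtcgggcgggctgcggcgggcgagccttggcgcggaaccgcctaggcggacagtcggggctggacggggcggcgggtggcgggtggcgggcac
The Ccnb1 window holds 2 CCAAT boxes, that of Cdc20 2 and that of Mki67 3. TTTGAA is present once in Cdc20, from 18 to 13 bases before the start, and at 2 places in Mki67. Of 22 list members with a window 18 hold a CCAAT box, against 39.3% of 13373 tested genes, and 7 hold the cell cycle homology region, against 13.6%. A match of letters is a description and shows no binding.

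**Figure D4:**
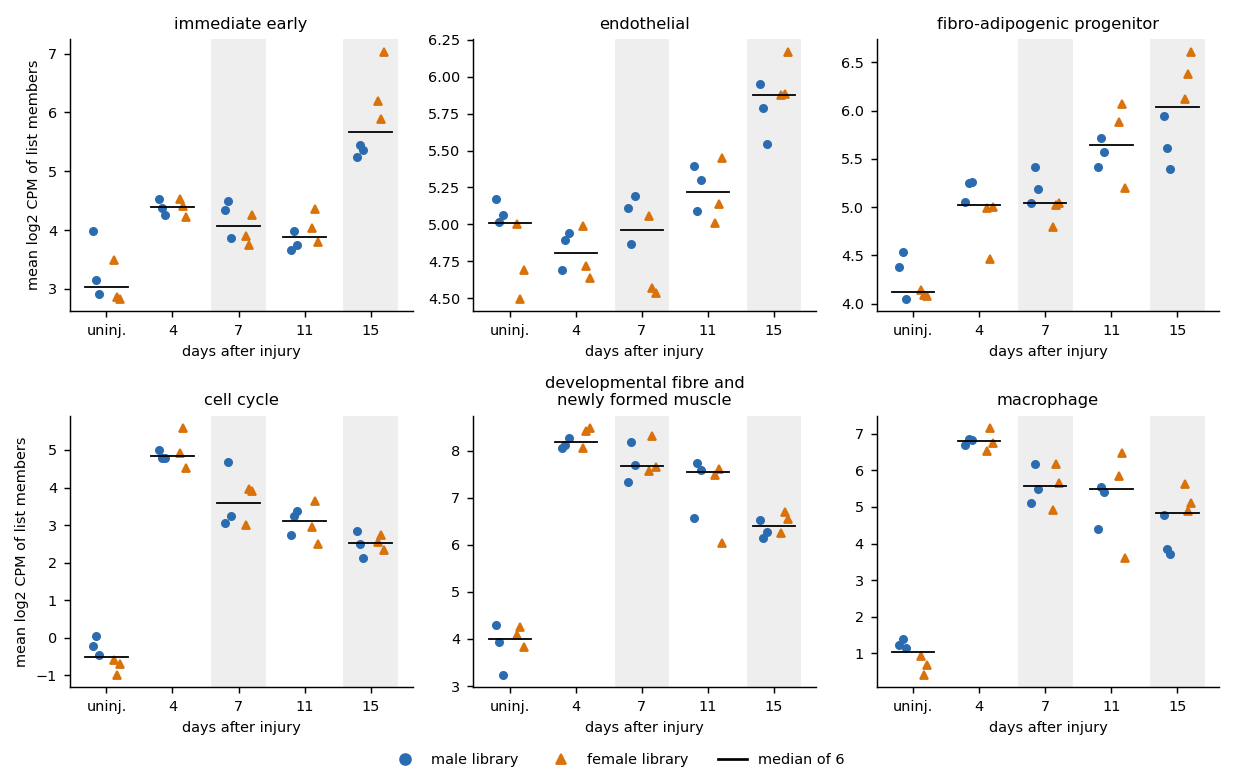
Mean log2 CPM over the members of 6 lists in each of the 30 libraries, by days after injury, with the median of 6 as a line and days 7 and 15 shaded. Immediate early genes stand at 3.75 to 4.49 at day 7 and 5.24 to 7.03 at day 15; cell cycle genes at 3.01 to 4.67 and 2.12 to 2.85.

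Macrophage markers fell in part. Of 16 markers 8 fell and 1 rose, with a median of -1.12. The number of falls was 5 without male day 15 replicate 2, without male day 15 replicate 3 or without female day 7 replicate 2. Ms4a7, a membrane protein of monocyte-derived macrophages whose family members may share reads, was at 31.0, 62.5 and 125 CPM at day 7 and at 5.46, 16.4 and 19.4 CPM at day 15 (-2.38 ± 0.48), with no overlap. The chemokine receptor Cx3cr1 fell by 2.18 ± 0.36 and the high-affinity Fc receptor Fcgr1 by 2.06 ± 0.45. The lysosomal Cd68 went from 59.0, 114 and 247 CPM to 18.2, 41.8 and 90.9 CPM (-1.77 ± 0.45). Adgre1, which encodes F4/80, did not pass (-0.34 ± 0.40); it reached 57.4 CPM in the highest library of day 15, above the 35.0 CPM of the highest at day 7.

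Repair and lipid-associated macrophage genes were lower in 10 of 20 cases and higher in 2, with a median of -0.89. The falls numbered 4 without male day 7 replicate 2, without male day 15 replicate 2 or without female day 7 replicate 2. Trem2, a lipid receptor, went from 35.3, 64.0 and 155 CPM to 7.94, 20.1 and 29.0 CPM (-2.13 ± 0.40). Osteopontin, Spp1, went from 96.5, 148 and 906 CPM to 9.25, 23.3 and 36.3 CPM, a change of -3.56 ± 0.59, or -2.77 without male day 7 replicate 2. Arg1, which degrades arginine and also marks alternatively activated macrophages, fell by 2.59 ± 0.60. Chil3, another such marker, changed by -6.10, or by -7.82 to -5.77 when 1 library was left out. Its mean over the 12 libraries was under 1 CPM. Against these, Retnla, a marker of alternatively activated macrophages with close paralogs, went from 0.373, 2.48 and 4.77 CPM to 4.78, 26.5 and 59.7 CPM (3.76 ± 0.52), the ranges just apart. The haemoglobin scavenger receptor Cd163 rose by 1.27 ± 0.34, a call not made at the smallest total (adjusted p = 0.0704 by edgeR), and Mrc1 did not pass (0.32 ± 0.26). Cd163 and Mrc1 are also on the list of resident macrophage genes, of which 4 of 14 rose and none fell, with a median of 0.23 (-0.24 in males and 0.76 in females). The others that rose were Lyve1, Ccl24 (1.24 ± 0.34) and the reductase Cbr2 (0.60 ± 0.21). Ccl24 changed by -0.72 in males and 3.20 in females, and Cbr2 by -0.21 and 1.41. The call of Cbr2 was lost without any 1 of 8 libraries. Thinned to the smallest total, 2 of the 14 resident macrophage genes were called.

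Genes of other leukocytes differed from list to list. Among all tested genes 9.65% fell, and the T cell (7.14%), MHC class II (8.33%) and B and plasma cell (10%) lists lay near that share. The single falls in those lists are therefore no result about the lists. The interferon-stimulated list (13.6%) lay somewhat above it. Neutrophil markers fell in 2 of 10 cases, the receptor Csf3r (-1.88 ± 0.32) and Mmp9, or in 5 without female day 15 replicate 3. S100a8 was at 3.54, 6.18 and 12.1 CPM at day 7 and at 0.246, 1.53 and 15.7 CPM at day 15, which did not pass (-1.14 ± 0.51) but did without female day 15 replicate 3 (-1.81). Of 22 interferon-stimulated genes 3 fell, led by the antiviral Mx1 (-2.43 ± 0.55), which may share reads with its paralog. The number was 1 without male day 7 replicate 2, male day 15 replicate 2 or 3 or female day 15 replicate 3, and 5 without female day 7 replicate 1. Of 12 genes of MHC class II presentation 1 fell, the lysosomal protease Ctss (-1.47 ± 0.49), or 0 to 3 when 1 library was left out (3 without female day 7 replicate 1). Cd72, a receptor of B cells and some myeloid cells, went from 6.35, 19.5 and 46.9 CPM to 1.40, 3.62 and 4.68 CPM (-2.74 ± 0.45), and the innate sensor Tlr1 fell by 2.59 ± 0.37. T cell markers fell in 1 of 14 cases, Tcf7 (-1.25 ± 0.23), against a list median of -0.90, or in 3 without male day 15 replicate 1 or female day 7 replicate 1 and 2 without male day 7 replicate 1 or female day 15 replicate 2. B and plasma cell markers fell in 1 of 10, Cd22 (-1.35 ± 0.39), a call lost without male day 15 replicate 3, female day 7 replicate 2 or female day 15 replicate 3. Of 12 NK and cytotoxic genes 4 fell, Eomes (-2.02 ± 0.62), Gzma (-1.98 ± 0.62), Xcl1 (-1.87 ± 0.57) and Ncr1 (-1.70 ± 0.58), and all 12 had a change below 0, with a median of -1.44; the number called was 0 without male day 15 replicate 2, female day 15 replicate 2 or female day 7 replicate 3, 1 without male day 7 replicate 2, male day 15 replicate 3 or female day 7 replicate 2, 2 without male day 7 replicate 3 or female day 15 replicate 1 or 3, and 7 without male day 7 replicate 1.

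Mast cell genes rose at low levels. Of the 10 genes tested on the mast cell and eosinophil list 4 rose and none fell; 4 others had too few counts to test. The 4 encode proteins of mast cell granules. The tryptase Tpsb2 went from 0.0580, 0.394 and 1.10 CPM to 1.40, 2.59 and 7.99 CPM (2.69 ± 0.48), the chymase Cma1 from 0.174, 0.433 and 0.839 CPM to 0.973, 2.76 and 6.37 CPM (2.66 ± 0.45). Neither overlapped between the days. The carboxypeptidase Cpa3 rose by 2.52 ± 0.47 and the protease Mcpt4 by 2.31 ± 0.43. These protease families can share reads. Kit, the receptor of mast cells, did not pass (0.68 ± 0.26).

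Chemokines and cytokines included single genes with large rises. Of 23 chemokines 5 rose and none fell. Cxcl1, which attracts neutrophils, went from 0.233, 1.01 and 1.60 CPM to 3.61, 12.9 and 67.2 CPM (3.86 ± 0.42), with no overlap and the 3 females of day 15 highest. The eosinophil attractant Ccl11 rose by 1.54 ± 0.26 and Cxcl14 by 1.29 ± 0.22. Ccl2, which attracts monocytes, did not pass (-0.42 ± 0.44). Of 18 cytokines 3 rose and 2 fell. Il6 rose by 2.21 ± 0.54, with 18.1 CPM in female day 15 replicate 3; without that library the change was 1.47 and not called (adjusted p = 0.0597 by edgeR), and without male day 7 replicate 2 it was 2.89. The alarmin Il33 rose by 0.74 ± 0.21. Fitted in each sex, Il33 changed by 0.10 in males and 1.38 in females, and Il6 by 0.32 and 4.10. No gene was called by edgeR for a difference between the sexes. The 2 cytokines that fell were Il1rn (-2.23 ± 0.67) and Cxcl16 (-1.36 ± 0.35). The call of Il1rn was lost without any 1 of 6 libraries.

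Schwann cell and nerve genes moved in both directions, with 4 of 17 higher and 3 lower, or 2 higher without female day 15 replicate 1. The neuregulin receptor Erbb3 fell by 1.19 ± 0.18, and the adhesion molecule Ncam1, made by new or denervated fibres and by Schwann cells that have lost their axons, by 1.40 ± 0.28. Neither of these overlapped between the days. Sox8, a transcription factor of satellite and glial cells, was among the largest falls (-2.70 ± 0.28). Of the contractile vessel wall genes, smooth muscle myosin, Myh11, rose by 1.43 ± 0.25 and the pericyte regulator Rgs5 by 0.79 ± 0.22, 4 of 16 rising and 1 falling in that list. Rgs5 was not called when only the 12 libraries were fitted (adjusted p = 0.0544 by edgeR).

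Adipocyte genes varied from library to library. Of 15 members 5 rose, but 2 to 11 when a library was left out; the number was 11 without female day 7 replicate 3, 2 without male day 7 replicate 3, male day 15 replicate 1 or female day 15 replicate 3, and 3 without male day 7 replicate 2, female day 7 replicate 1 or 2 or female day 15 replicate 1. The fatty acid binding protein Fabp4, also made by vessels, went from 119, 193 and 322 CPM to 417, 558 and 927 CPM (1.51 ± 0.27), with no overlap. Adiponectin, Adipoq, did not pass (2.12 ± 0.83), but was called without female day 7 replicate 3 (4.42) or female day 15 replicate 2 (2.39). It reached 10.6 CPM in the highest library of day 7, where the median was 0.316 CPM. Ribosomal protein genes (21) and proteasome genes (17) gave no call, with medians of -0.13 and -0.10.

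Both sexes were sampled on both days. In males edgeR called 128 genes higher (0.747%) and 228 lower (1.33%), 2.08% in either direction, and in females 848 higher (4.95%) and 765 lower (4.46%), or 9.41%. Without male day 7 replicate 2 the males gave 4 higher and 3 lower, without male day 15 replicate 2 13 and 3, without male day 15 replicate 3 20 and 7, without male day 7 replicate 3 58 and 174, and without male day 7 replicate 1 452 and 824. Without female day 11 replicate 3, a library whose sex genes go against its label and which enters only the estimate of spread, they gave 267 and 503, and without female day 7 replicate 1 193 and 412. The females gave 437 and 176 without female day 15 replicate 3, 447 and 325 without female day 7 replicate 2, 491 and 272 without female day 7 replicate 3, 556 and 340 without female day 15 replicate 1, and 1465 and 1538 without female day 7 replicate 1. The difference in change between the sexes was tested by itself, and edgeR called no gene (0%), with 1418 at an unadjusted p under 0.05; DESeq2 called 14 genes whose change was more positive in females and 3 in which it was more positive in males. The counts within each sex therefore do not show that the sexes differed.

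Of the 167 named genes called over both sexes 163 had the same sign in males and females, and 76 of the 89 that rose had the larger fitted rise in females. A call on the mean of the sexes favours genes with the same sign in both. The 163 are therefore no separate result about agreement between the sexes. Of the 78 that fell, 45 had the larger fitted fall in males. Some of these genes were named for a small p in the test of the sex difference. Fosb changed by 4.40 in males and 5.80 in females, Zfp36 by 1.89 and 4.04, and Myh3 by -3.08 and -2.76. The smallest p for a sex difference was that of Ccl24, a chemokine of alternatively activated macrophages. It was at 0.845 to 2.39 CPM in males and 0.312 to 0.559 CPM in females at day 7, and at 0.632 to 1.23 CPM in males and 2.87 to 4.62 CPM in females at day 15. The fitted difference was 3.92 ± 0.69, with an adjusted p = 0.106 by edgeR. Gem, a small GTPase of the early response, had a difference of 2.09 ± 0.45 (adjusted p = 0.378 by edgeR) and rose in both sexes together (2.02 ± 0.23).

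**Figure D5:**
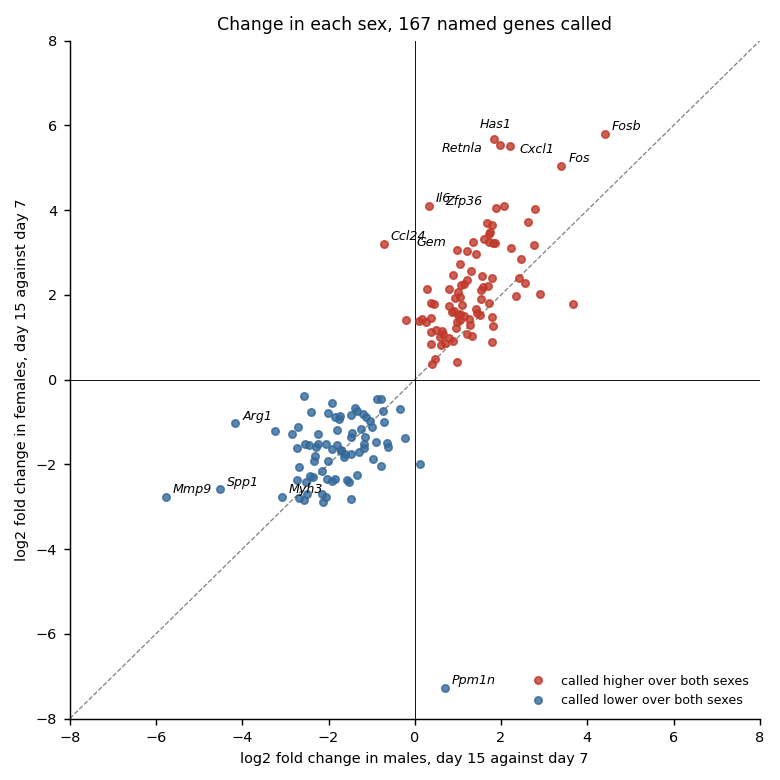
Fitted log2 change from day 7 to day 15 in males (x axis) and females (y axis) for the 167 named genes called over both sexes; the dashed line marks equal change. Of the points 163 have the same sign in both sexes, which the choice of genes called over both sexes favours. Ppm1n had no counts in the 3 female libraries of day 15, so its fitted value there depends on the prior count.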

How the data were processed

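RNA of 30 libraries was sequenced, and the 12 of days 7 and 15 were compared. The deposited files hold 1 whole-number count per gene symbol and library. The submitters' processing notes name STAR, edgeR and the build mm39; versions, the counting program, the annotation and the use of strand are, in the sources used here, not given, so overlapping and antisense genes cannot be told apart. In each library 65.5 to 77.5% of counts from 1 to 20 were even, as when both reads of a pair are counted.

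Genes were kept by filterByExpr (17136 kept, 9128 removed), scaled by TMM and fitted with edgeR 4.0.16 (glmQLFit, 1 mean per sex and time, all 30 libraries) in R 4.3.3. The mean of the sexes at day 15 was tested against that at day 7 with glmQLFTest, adjusted by Benjamini-Hochberg over all genes. SE is the fold change divided by the square root of F. Log2 CPM used a prior count of 2. Gene levels are not corrected for transcript length, so levels of different genes are not compared. On counts simulated for this comparison with 50 genes per fold the same code called 50 of 50 changed 4-fold in either direction, 27 of 50 changed 2-fold, 6 of 50 changed 1.5-fold and 9 of 16397 unchanged genes. The simulation gave every gene the same spread and every group the same makeup, and it left genes of low counts unchanged. These rates therefore need not hold for the real libraries. Within each sex and time group no library was a copy of another (lowest chi-square per degree of freedom 16.2). Libraries of different groups were not compared in this way.

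The comparison and the 58 gene lists (947 symbols, 910 tested) were chosen with earlier results of these data known, and so were the rules for names. Named genes were the 15 largest rises and 15 largest falls whose days did not overlap and whose mean reached 5 CPM, the 4 largest called changes per list among genes with a mean of 1 CPM or more, the 3 smallest p-values per direction for the sex difference, and 37 always reported, 190 in all. List members that did not pass, genes of counts of 5 or fewer, lymphatic genes and Chil3 were named after their values were seen.

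Replicate numbers are shared between groups. Deviations of same-numbered libraries of the 2 days correlated at -0.212, -0.18 and 0.122 in males and at -0.138, 0.0326 and -0.258 in females, so the numbers were not used as pairs. Alternatives were RLE scaling, library size alone, other filters, DESeq2 1.42.0, a 2-fold threshold, fewer libraries in the fit, a replicate block, thinning, halved counts and leaving out each library. The library labelled female day 11 replicate 3, whose sex genes go against its label, entered the spread but not the comparison.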

Additional observations from a re-analysis of the deposited data

Results flagged for a closer look

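Of 380 sets of 6 libraries examined, 16 (4.21%) held a library whose log2 CPM lay so far from its neighbour that the gap, as a share of the whole range of the 6, passed the 95% critical value of Dixon's test. Chance alone marks about 1 set in 20. That share of the log2 range stands in parentheses after each gene. Among the genes that rose, Cxcl1 in female day 7 replicate 2 was low, at 0.233 CPM against 0.911 to 1.60 CPM (0.694), and so were Utrn (31.9 CPM against 41.3 to 45.2 CPM, 0.745) and Il33 (5.27 CPM against 6.62 to 7.30 CPM, 0.701) in female day 7 replicate 3 and Foxo1 in male day 7 replicate 2 (13.5 CPM against 16.8 to 18.7 CPM, 0.663). Ccn2 was high in male day 7 replicate 2, at 84.4 CPM against 22.7 to 30.7 CPM (0.77). Ltbp4 was high in female day 15 replicate 2, at 452 CPM against 272 to 329 CPM (0.6251). The cardiac calcium pump regulator Pln was low in female day 15 replicate 1, at 2.28 CPM against 5.16 to 7.46 CPM (0.688).

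Female day 15 replicate 2 held the highest level of 3 myosin genes on its day. These were Myh3 (319 CPM against 92.3 to 140.4 CPM, 0.661), Myl6b (57.1 CPM against 17.1 to 26.1 CPM, 0.651) and Myh2 (2824 CPM against 744.5 to 1037 CPM, 0.751). Myl6b was also high in female day 7 replicate 2, at 197 CPM against 66.2 to 96.9 CPM (0.65). Sarcolipin, Sln, was high in male day 15 replicate 3, at 1088 CPM against 309.8 to 484 CPM (0.646), and Fgfr4 was low in female day 15 replicate 3, at 7.45 CPM against 12.3 to 14.9 CPM (0.722).

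The interleukin Il1b stood at 19.9 CPM in female day 15 replicate 3 against 1.71 to 3.84 CPM in the other 5 (0.674). That library was also the highest at day 15 for Fosb, Fos, Zfp36, Cxcl1 and Il6. Ccl2 was high in male day 7 replicate 2, at 19.7 CPM against 3.22 to 6.05 CPM (0.653), and Cd3e low in male day 7 replicate 1, at 0.138 CPM against 0.494 to 0.873 CPM (0.668).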

How the results depend on the processing

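No gene called between the days changed sign under any of the 23 alternatives. The counts of calls within 1.5 times of those reported are not repeated. A 2-fold threshold left 63 higher and 61 lower, with 1 and 0 in males and 81 and 24 in females. With only the 12 libraries fitted there were 994 lower, 12 higher and 7 lower in males, and 485 and 271 in females. Thinning gave 1044 lower, 48 and 77 in males and 361 lower in females. DESeq2 gave 363 and 667 in males, 1229 lower in females, and a sex difference in 14 and 3 genes. Library size alone gave 76 higher in males and 524 in females. Without the library whose sex genes go against its label the males gave 267 and 503, and 1 gene differed between the sexes. Leaving out each library gave 1071 to 2219 lower, 4 to 452 higher and 3 to 824 lower in males, 437 to 1465 and 176 to 1538 in females, and 0 to 1 gene with a more positive change in females. The cause of these shifts was not tested.

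Signs turned only in genes that were not called. They were Myh1 (-0.00236 to 0.593 over the fits without 1 library), Ckm (-0.343 to 0.756), Ccl2 (-0.878 to 0.111), Pdgfra (-0.0829 to 0.24, and -0.143 with library size alone) and Banp (-0.0237 with library size alone). Of 167 named genes called 133 kept the call without each library and 34 lost it without at least 1. With the replicate block the counts were 1090 higher and 1349 lower, with 84 and 93 in males, and Ckm was 0.00897. The numbers do not pair the samples, so these are no better values. Depth limits genes at low levels, such as those of the cytotoxic list, which summed to 6.97 to 19.6 CPM at day 15; thinned to the smallest total, 0 of 12 cytotoxic genes were called against 4.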

Other observations

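Further genes known from lymphatic vessels were looked up after Lyve1 and Mmrn1 had been seen among the largest rises, so the choice rests on the values. Mmrn1 was at 0.513, 1.35 and 1.87 CPM at day 7 (lowest, median and highest of 6) and at 2.68, 11.3 and 12.8 CPM at day 15. Reln, a secreted glycoprotein, went from 1.52, 2.89 and 4.79 CPM to 4.87, 7.90 and 13.6 CPM, with no overlap (1.41 ± 0.26). Flt4, the receptor for lymphatic growth factors, went from 7.32, 10.6 and 13.7 CPM to 14.2, 23.8 and 28.3 CPM, again with no overlap (1.11 ± 0.20). The peptide Nts rose by 2.39 ± 0.42 with overlapping days. Others did not pass the test of edgeR, with Prox1 at 0.32 ± 0.24 (adjusted p = 0.410), Pdpn at -0.03 ± 0.25 (adjusted p = 0.951) and Stab2 at 0.35 ± 0.38 (adjusted p = 0.583). No test of the group was made.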
